A study of Mus musculus with 6 samples.

Results

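Collagens are the main structural proteins of the extracellular matrix, and each collagen molecule is a helix of 3 alpha chains. Each kind of alpha chain is encoded by a gene of its own, and the 3 chains of a molecule need not be of different kinds. All mouse genes whose symbol names an alpha chain (Col, a type number, a and a chain number) were taken from the array's platform annotation, using probes with exactly 1 symbol and the brightest probe per gene. This gave 41 collagen genes of the 19057 genes measured, and all 41 matched the RefSeq gene table by Entrez identifier with the same symbol. By structure 11 encode fibrillar chains, 6 the type IV chains of basement membranes, 7 FACIT chains, 4 transmembrane chains and 13 other chains. The chains Col6a3, Col12a1, Col20a1 and Col21a1 had no probe with exactly 1 symbol in the table used here and were not analysed here.

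Fibrillar collagens assemble into the fibres that bear tension, and FACIT collagens, named as fibril-associated collagens with interrupted helices, sit on the surface of those fibres. Type IV collagen forms the sheet under epithelia and around vessels, type VI forms beaded filaments close to cells, and type VIII forms short-chain networks. In the embryonic jaw, loose mesenchyme, muscle connective tissue, early bone and cartilage all make collagens, and the tooth bud lies on a basement membrane between epithelium and mesenchyme.

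The samples were 6 Illumina bead arrays of CD-1 embryos, an outbred stock, at embryonic day 13.5, with no treatment or engineered allele named in the labels. By title, 3 libraries are whole lower molar tooth germ and 3 are oral tissue, which the tissue fields describe as mandibular and without tooth or bone. Each library is a pool over more than 1 mouse, and both libraries with a given number come from a single litter. Source names and tissue fields give the tooth germ to the opposite 3 libraries, so the words tooth germ and oral tissue below follow the titles alone, and every sign turns if those fields are right. Values are signals on the deposited log2 scale, differences are tooth germ minus oral tissue, and a gene was called at a limma adjusted p under 0.05 over all 19057 genes. The number of arrays, n = 3 per group, limits the precision of every value.

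Facts of the whole series that touch the collagens are these. Signals ran from 6.61 to 14.88 with a median of 7.01 and an upper quartile of 7.84 on every array. Over all genes 456 were called higher (2.39%) and 651 lower (3.42%) in tooth germ, and the median difference was 0.0026. As checks of the labels, Msx1, a gene of dental mesenchyme, read 11.09 ± 0.31 in oral tissue and 12.56 ± 0.17 in tooth germ (SD, n = 3), and the muscle regulator Myod1 read 8.97 ± 0.23 and 7.49 ± 0.031. The log2 difference was 0.78 for Shh, a ligand of dental epithelium, and -1.94 for the muscle actin Acta1 (limma adjusted p = 0.0022 and 7.7e-05). Both sets of 3 libraries, whichever is the bone-free one, had osteoblast genes above the upper quartile: Sp7 read 10.40 to 11.63 in libraries titled oral tissue and 10.86 to 11.67 in those titled tooth germ, and Ibsp 11.62 to 13.35 and 10.88 to 12.96.

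The sequences shown first are the promoters of both partner pairs of which each member was called, the type VIII pair, higher in tooth germ, and the type VI pair, lower. They are the 250 bases before the annotated gene start, from RefSeq on GRCm38.p6, written 5′ to 3′ on the gene's strand. Capitals mark GC boxes (GGGCGG, or CCGCCC on the other strand). Overlapping matches, as in Col8a2 and Col6a2, run together in the print and are counted separately. Col8a1 lies at chr16:57754738-57754987 on the minus strand, Col8a2 at chr4:126286544-126286793 on the plus strand, Col6a1 at chr10:76726045-76726294 and Col6a2 at chr10:76623405-76623654, both on the minus strand. Col6a2 has 2 listed starts, of which the first listed is shown.
Col8a1: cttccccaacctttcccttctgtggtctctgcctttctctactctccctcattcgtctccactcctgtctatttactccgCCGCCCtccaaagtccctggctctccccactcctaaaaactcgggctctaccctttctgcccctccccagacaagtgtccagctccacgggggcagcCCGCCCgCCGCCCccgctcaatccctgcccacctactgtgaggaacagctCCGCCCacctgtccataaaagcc
Col8a2: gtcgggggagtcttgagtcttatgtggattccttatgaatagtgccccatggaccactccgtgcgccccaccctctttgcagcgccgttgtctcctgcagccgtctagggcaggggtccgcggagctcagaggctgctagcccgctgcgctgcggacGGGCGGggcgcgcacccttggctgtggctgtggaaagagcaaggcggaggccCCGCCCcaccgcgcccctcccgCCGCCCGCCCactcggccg
Col6a1: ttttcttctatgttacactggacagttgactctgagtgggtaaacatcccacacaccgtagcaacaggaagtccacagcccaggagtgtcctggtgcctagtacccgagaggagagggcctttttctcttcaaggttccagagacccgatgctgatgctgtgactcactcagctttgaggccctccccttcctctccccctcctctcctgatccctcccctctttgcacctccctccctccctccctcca
Col6a2: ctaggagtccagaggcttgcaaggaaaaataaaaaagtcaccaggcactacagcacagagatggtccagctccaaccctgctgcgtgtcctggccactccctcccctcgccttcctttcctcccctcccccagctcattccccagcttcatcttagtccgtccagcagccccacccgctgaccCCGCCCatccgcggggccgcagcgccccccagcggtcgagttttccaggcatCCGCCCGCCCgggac
Both type VIII promoters hold 4 GC boxes, the shown Col6a2 promoter holds 3 and the Col6a1 promoter holds 0. Whether these boxes bear on the calls was not tested. GC content was 60.8% for Col8a1, 70.0% for Col8a2, 56.0% for Col6a1 and 64.4% for Col6a2. Among the 33 collagen genes with a promoter in the table, 21 (63.6%) hold a GC box, against 8009 of 17492 protein-coding genes (45.8%) and 10756 of 32851 windows of the same length (32.7%). Median GC content was 59.8% for the collagen genes and 55.6% for the protein-coding genes. The CCAAT box (CCAAT, or ATTGG on the other strand) was found in 13 of the 33 collagen genes (39.4%) and 33.8% of all windows. The TATA box (TATAAA, or TTTATA on the other strand) was in 5 of 33 (15.2%) and 12.4% of all windows. A gene was counted if any of its windows held the match, so shares of genes and of windows are unlike units. The CCAAT and TATA shares over protein-coding genes were not counted. Of the 7 called collagen genes with a promoter in the table, 6 hold a GC box (all but Col6a1), 1 a CCAAT box (Col16a1) and 0 a TATA box. A match is a run of letters and not a measured binding site.

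The comparison of the titled groups asked how collagen expression differs between the molar tooth germ and the oral tissue around it. Type VIII collagen genes and the transmembrane collagen gene Col23a1 were higher in tooth germ. The type VI genes Col6a1 and Col6a2, the FACIT genes Col14a1 and Col16a1, and the fibrillar gene Col5a1 were lower. Of the 41 collagen genes 3 were called higher (Col8a1, Col8a2, Col23a1) and 5 lower (Col14a1, Col6a1, Col6a2, Col16a1, Col5a1), and 33 were not called (limma, adjusted p under 0.05). Over all genes 5.81% were called, 2.39% higher and 3.42% lower, and the median difference of the 41 collagen genes was -0.023. With litter as a block 3 collagen genes were called higher and 7 lower (3.86% and 5.02% of all genes), the additions being Col3a1 and Col1a2. In bulk tissue, fewer cells of a type and less RNA per cell cannot be told apart.

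**Figure D1:**
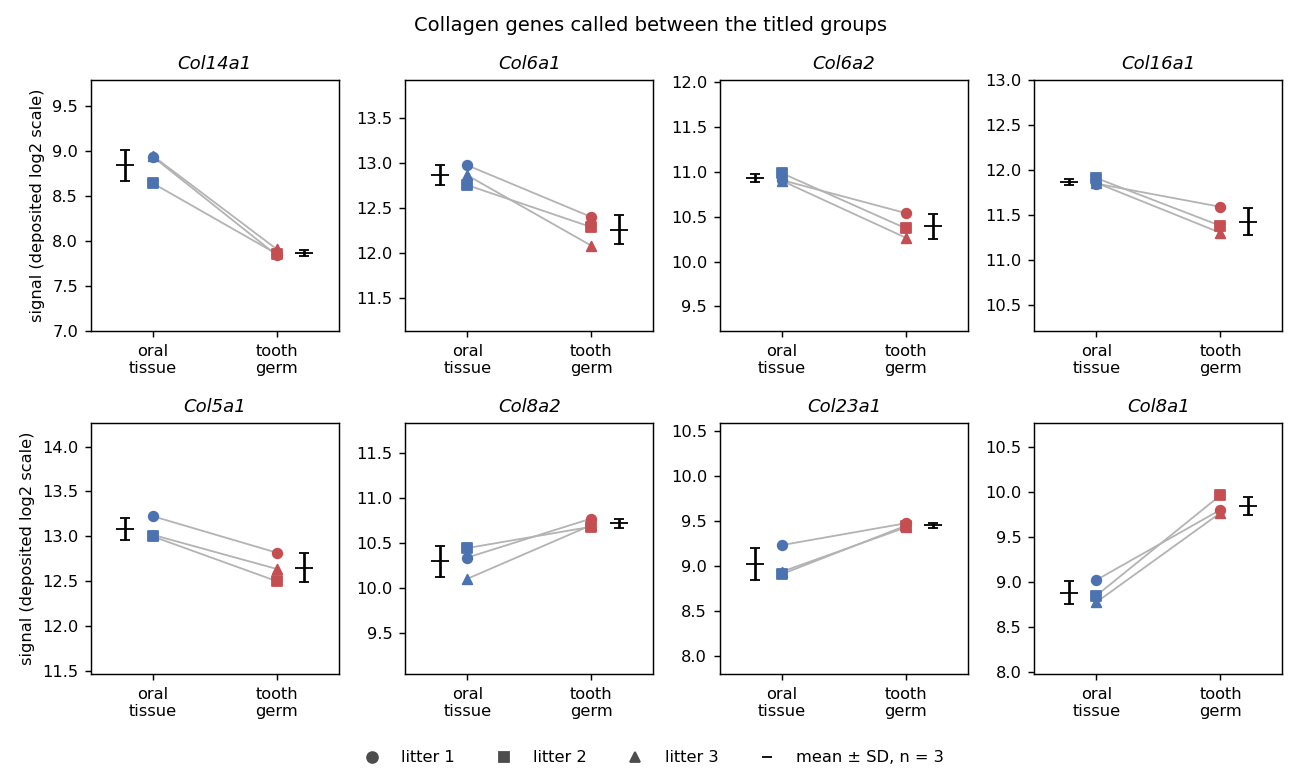
Signal on the deposited log2 scale of the 8 collagen genes called between the titled groups, with 1 point per library, a line joining libraries of 1 litter, and mean ± SD (n = 3) beside each group; every panel spans the same range. In each panel the 3 libraries of one group lie on one side of the 3 of the other, from Col14a1 with a difference of -0.97 to Col8a1 with 0.96.

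Mean signal lay under the overall median for 11 of the 41 genes, 5 lay between the median and the upper quartile, and 25 lay above the upper quartile, and all 8 called genes were among those 25. The 16 dimmer genes had differences between -0.088 and 0.085. Whether these dim probes exceed background is unknown from the signals alone. Among the 25 brighter genes the median difference was -0.17 and 17 of 25 were negative, beside a median of 0.016 and 45.7% negative for the 7266 genes of all kinds above the same level. The median of the 25 was -0.18, -0.19 and -0.13 in litters 1, 2 and 3.

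**Figure D2:**
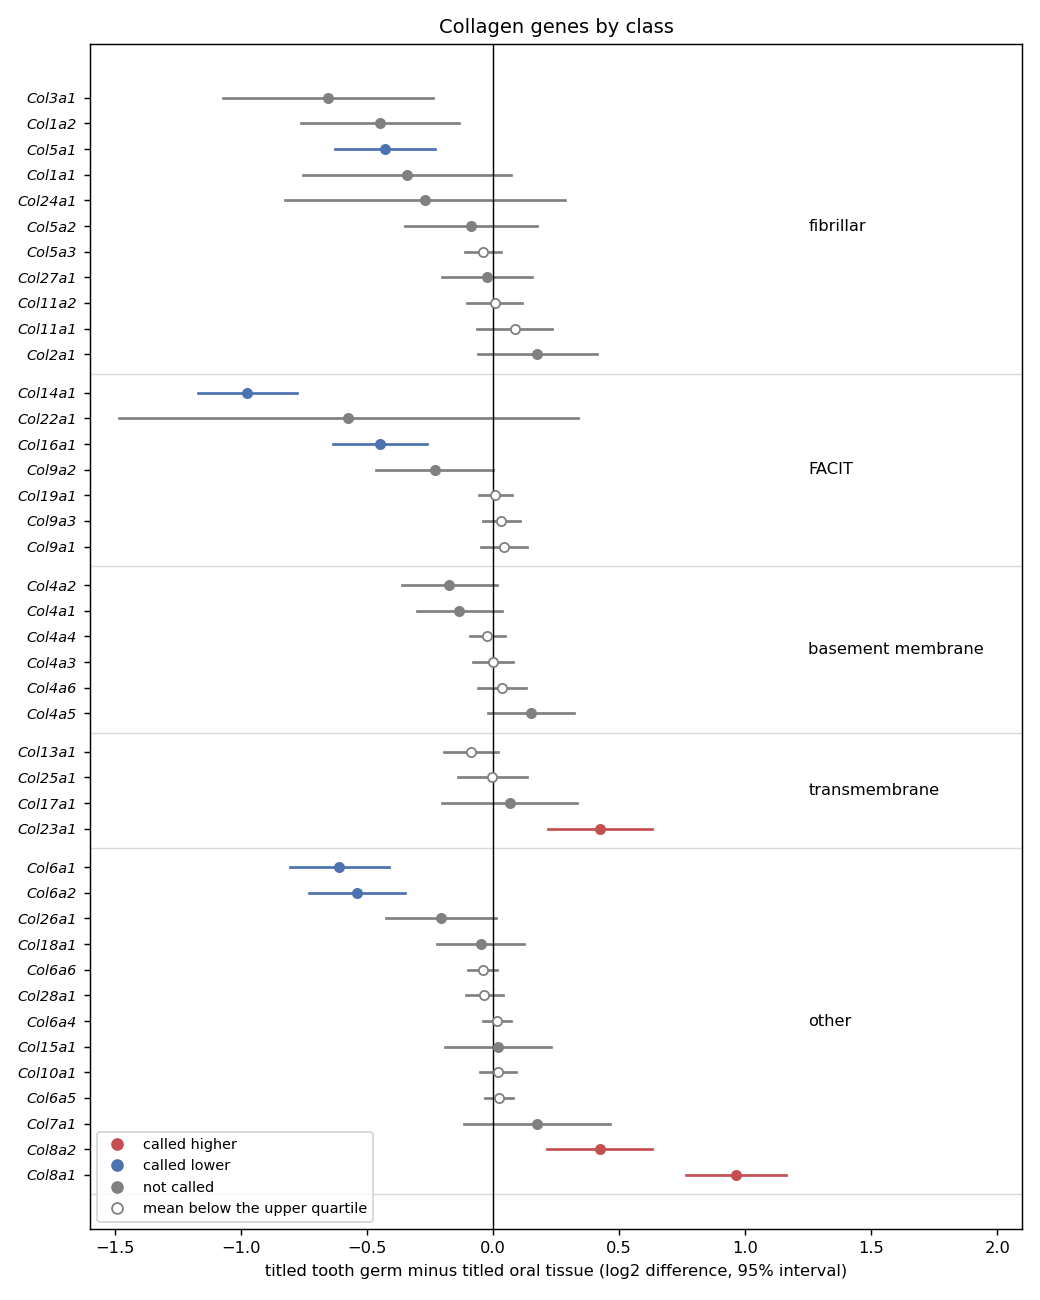
Difference between tooth germ and oral tissue (log2, x axis) with its 95% interval from limma for each of the 41 collagen genes, by class; colour marks the call and open points have a mean signal below the upper quartile of all values. The dim genes cluster at 0, and the called genes are spread over the fibrillar, FACIT, transmembrane and other classes.

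Both type VIII chains rose. Col8a1 and Col8a2 encode the chains of type VIII collagen, known from the matrix under the corneal endothelium and from vessel walls. Col8a1 read 9.02, 8.85 and 8.78 in the 3 oral tissue libraries and 9.81, 9.97 and 9.77 in tooth germ. All tooth germ libraries lay above all oral tissue libraries, with a log2 difference of 0.96 (SE 0.091, 1.95-fold, adjusted p = 6.4e-05). Col8a2 read 10.34, 10.44 and 10.10 against 10.77, 10.68 and 10.70. Its groups did not overlap either, and its difference was smaller, at 0.42 (SE 0.095, adjusted p = 0.0220). The call of Col8a1 held under all 18 alternatives, whereas that of Col8a2 was lost without oral tissue library 1 (adjusted p = 0.0513) or 3 (0.0897), without tooth germ library 1 (0.0923) or 3 (0.0523), and without both libraries of litter 1 (0.183) or 3 (0.113), at differences of 0.33 to 0.44. Col10a1, the third short-chain collagen gene and a product of hypertrophic cartilage, was dim, at 6.79 ± 0.015 and 6.81 ± 0.070, and was not called.

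Type VI collagen went the other way in its chain genes Col6a1 and Col6a2. This collagen surrounds muscle fibres, nerves and many mesenchymal cells. Col6a1 read 12.98, 12.76 and 12.87 in oral tissue and 12.40, 12.29 and 12.08 in tooth germ. The groups did not overlap, and the difference was -0.61 (SE 0.090, adjusted p = 0.0015). Col6a2, its partner chain, read 10.91, 10.98 and 10.90 against 10.54, 10.37 and 10.26, again without overlap (-0.54, SE 0.087, adjusted p = 0.0027). Both calls held under all 18 alternatives. In the RefSeq table Col6a1 and Col6a2 are next to each other on chromosome 10, with no other protein-coding gene between their starts. The newer type VI chain genes Col6a4, Col6a5 and Col6a6, which adjoin each other on chromosome 9, were all dim (6.79 to 6.85 as group means), with differences of 0.016, 0.023 and -0.042 and no call.

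The FACIT class held the largest fall of any collagen gene. Col14a1 encodes a chain that coats fibrils in tendon, dermis and muscle connective tissue. It read 8.94, 8.64 and 8.95 in oral tissue and 7.84, 7.86 and 7.91 in tooth germ. The tooth germ libraries were nearly level (SD 0.035) and far below every oral tissue library (-0.97, SE 0.090, adjusted p = 5.5e-05), and the call held under all 18 alternatives. Col16a1, a fibril-associated chain of dermis and cartilage, read 11.85, 11.91 and 11.85 against 11.59, 11.38 and 11.30. Its difference was -0.45 (SE 0.085, adjusted p = 0.0079), and its call was lost without both libraries of litter 2 (adjusted p = 0.0832) or litter 3 (0.0728). Of the type IX chains of cartilage, Col9a2 read 9.41, 9.25 and 9.04 against 9.16, 8.95 and 8.90 and was lower in every litter, but the groups overlapped and it was not called (-0.23, adjusted p = 0.295). Its partners Col9a1 and Col9a3 and the FACIT gene Col19a1 were dim and differed by 0.044, 0.032 and 0.0080. In all, 2 of 7 FACIT genes fell, 0 rose and 5 were not called, with a median of -0.23.

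Most muscle genes and some connective tissue genes were lower in tooth germ, as the called type VI and XIV genes were, and their part in the collagen differences was not tested. Of 11 skeletal muscle genes 10 fell, led by Actc1 and Mylpf (-2.52 and -2.05), and their mean signal was 10.39 to 11.07 in oral tissue and 8.96 to 9.17 in tooth germ (median difference -1.85). Of 11 tendon and connective tissue genes without collagens 4 fell and 7 were not called (median -0.082, mean signal 9.06 to 9.25 and 8.78 to 8.86). These 4 were the matrix genes Dpt, Kera, Ogn and Dcn, at -1.30, -1.28, -0.54 and -0.50. Fmod, Mkx and Lum had differences of 0.16, 0.15 and 0.12 and were not called. Tenomodulin, Tnmd, a defining tendon gene, was dim in all libraries (6.85 to 6.98), and the tendon regulator Scx read 9.16, 9.35 and 8.84 against 8.68, 8.74 and 8.83 (adjusted p = 0.101, and called with the block at 0.0447). Of 7 macrophage genes 6 fell (median -0.54), of 8 endothelial genes Tek fell (median -0.20; with the block also Emcn, adjusted p = 0.0377), and of 5 glial genes Sox10 fell (median -0.023).

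Among the fibrillar genes, 1 of 11 fell, 0 rose and 10 were not called (median -0.087). With litter as a block 3 of the 11 were called lower, the additions being Col3a1 and Col1a2, beside 5.02% of all genes. Col5a1 encodes the type V chain that sets fibril diameter. It read 13.22, 13.00 and 13.02 in oral tissue and 12.82, 12.50 and 12.64 in tooth germ. The groups did not overlap, and every litter gave a similar difference, -0.41, -0.50 and -0.38 (mean -0.43, SE 0.091, adjusted p = 0.0153). The call lay close to the threshold. It was lost without a variance trend (adjusted p = 0.0549), without oral tissue library 1 (0.0687), tooth germ library 2 (0.0600) or 3 (0.0556), and without litter 2 (0.0623) or 3 (0.0900). Its partner Col5a2 read 8.69, 8.50 and 8.31 against 8.61, 8.45 and 8.18, with a difference of -0.087 and a 95% interval of -0.35 to 0.17. Whether these partner chains differ from each other was not tested, and Col5a3 was dim (-0.039).

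Col3a1, the chain of the thin reticular fibres of soft tissue, read 10.69, 10.43 and 10.49 against 10.22, 10.11 and 9.31. It was lower in every litter and its groups did not overlap, but tooth germ library 3 stood far below the other two and the gene missed the threshold (-0.66, SE 0.19, adjusted p = 0.0745). With litter as a block Col3a1 was called (adjusted p = 0.0076), as it was with litter as a random effect (0.0400) and without tooth germ library 1 (-0.83, adjusted p = 0.0341), while without tooth germ library 3 the difference was -0.37. Col3a1 adjoins Col5a2 on chromosome 1.

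Type I collagen is the main collagen of bone, dermis and tendon, and neither of its chains was called without the block. Col1a1 read 12.19, 12.73 and 12.14 in oral tissue and 12.31, 11.56 and 12.17 in tooth germ. The groups overlapped and the difference was -0.34 (95% interval -0.75 to 0.071, adjusted p = 0.405). It was 0.12 and 0.034 in litters 1 and 3 and -1.17 in litter 2, and without litter 2 it was 0.076. Col1a2 read 8.69, 8.70 and 8.32 against 8.39, 7.81 and 8.17 and was lower in all 3 litters, by -0.30, -0.90 and -0.15. It was not called in the fit without the block (-0.45, adjusted p = 0.106) and was called with litter as a block (adjusted p = 0.0317), without oral tissue library 3 (0.0425) and without tooth germ library 1 (0.0427), and without litter 2 its difference was -0.22. In both type I genes litter 2 gave the largest difference of the 3 litters, with oral tissue library 2 the highest and tooth germ library 2 the lowest of the 6.

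Col22a1 and Col24a1 followed Col1a1 over the libraries. Col22a1 encodes a FACIT chain known from tissue junctions such as the muscle-tendon junction. It read 10.22, 11.11 and 9.92 in oral tissue and 10.58, 8.67 and 10.26 in tooth germ. Oral tissue library 2 was the highest and tooth germ library 2 the lowest of the 6, so the difference was 0.37, -2.43 and 0.34 in litters 1, 2 and 3. The mean of -0.57 (SE 0.42, adjusted p = 0.547) was not called, became 0.36 without litter 2 and 0.0085 without tooth germ library 2 alone. Col24a1, a fibrillar chain known from developing bone, read 9.07, 9.81 and 8.54 against 9.04, 8.50 and 9.07. Here too library 2 was at both ends, and the difference of -0.27 (adjusted p = 0.668) became 0.25 without litter 2 and 0.064 without oral tissue library 2.

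Osteoblast genes that are not collagens varied over the same libraries, and their part in these collagen values was not tested. Ibsp, the bone sialoprotein gene, read 12.13, 13.35 and 11.62 in oral tissue and 12.70, 10.88 and 12.96 in tooth germ, again with library 2 at both ends. The bone transcription factor Sp7 read 10.81, 11.63 and 10.40 against 11.67, 10.86 and 11.40. Alpl, bone alkaline phosphatase, read 9.36, 10.24 and 9.17 against 10.35, 9.88 and 10.29, and Phex, an enzyme-like protein of bone cells, 7.74, 8.48 and 7.98 against 8.55, 7.90 and 8.11. For these 4 genes library 2 was the highest of oral tissue and the lowest of tooth germ. Bglap and Dmp1 had the same order, though both were dim (6.84 to 7.04). That order was not particular to bone genes. It was also found in the cartilage collagen genes Col2a1 and Col11a1, the connective tissue gene Fmod and the crosslinking gene Loxl4. Its share over all genes was not counted. No osteoblast gene was called by limma, and 1 of the 6 had an unadjusted p under 0.05, namely Alpl (0.58, limma adjusted p = 0.197). The share of all genes under that unadjusted limit was not counted either. The mean signal of the 6 was 8.98, 9.61 and 8.83 against 9.55, 8.89 and 9.46.

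**Figure D3:**
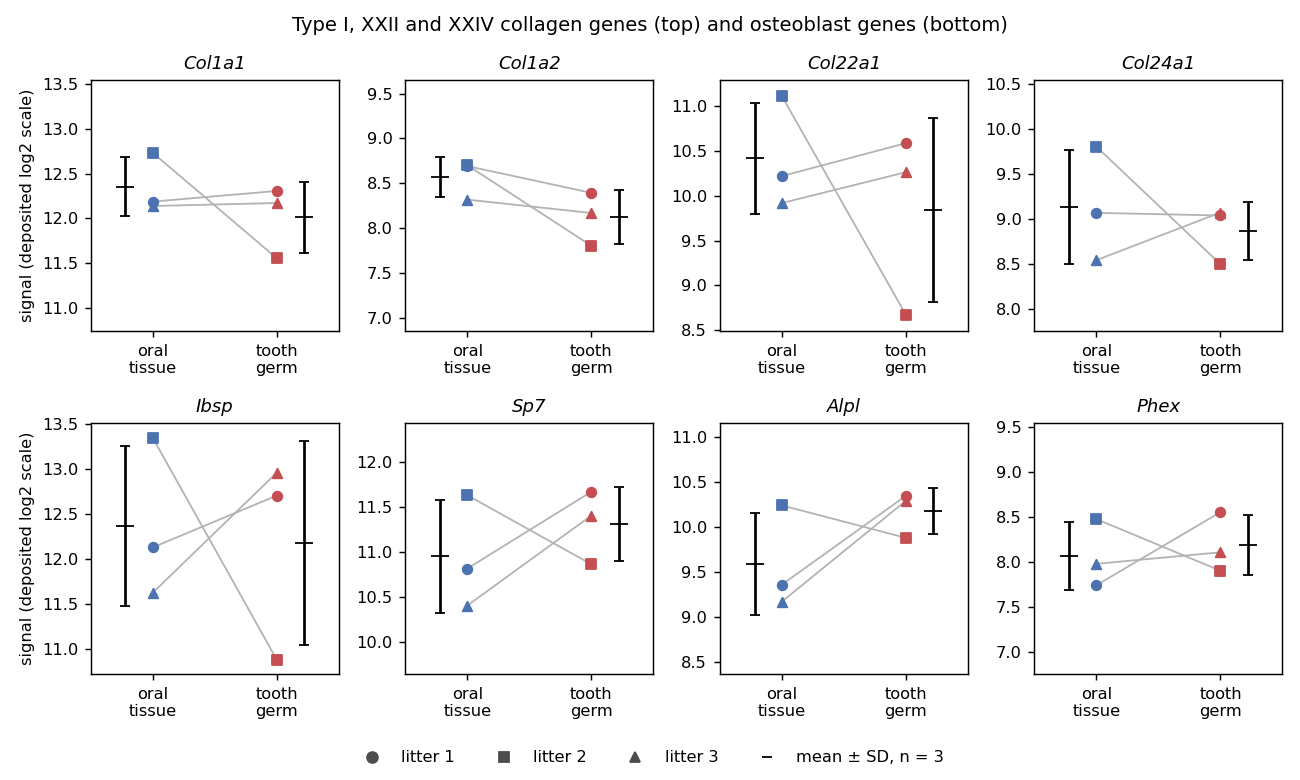
Signal on the deposited log2 scale of Col1a1, Col1a2, Col22a1 and Col24a1 (top) and of the osteoblast genes Ibsp, Sp7, Alpl and Phex (bottom), with 1 point per library, lines joining libraries of 1 litter and mean ± SD (n = 3) beside each group; every panel spans the same range. The square of litter 2 is the highest oral tissue point and the lowest tooth germ point in all 8 panels. Genes not drawn here, among them Col2a1 and Fmod, had the same order.

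Cartilage collagens showed no called difference. Col2a1, the main collagen of cartilage, read 9.93, 10.12 and 9.78 in oral tissue and 10.25, 9.95 and 10.16 in tooth germ. The groups overlapped, and the difference was 0.18 (95% interval -0.059 to 0.41, adjusted p = 0.456), positive in litters 1 and 3 and negative in litter 2. The type XI chains that share cartilage fibrils with it were dim, with Col11a1 at 7.06, 7.22 and 7.14 against 7.38, 7.11 and 7.17 (0.085) and Col11a2 at 7.21, 7.16 and 7.28 against 7.26, 7.16 and 7.25 (0.0063). Of 10 cartilage genes other than collagens 1 was called, Matn3 (0.13), and 9 were not. Matn3 was dim, with group means of 6.85 in oral tissue and 6.98 in tooth germ, below the median of all values. Acan, Comp and Hapln1 read between 6.95 and 7.13 in every library, near the median of all values, while Sox9 read 10.48 to 11.09 and Matn4 9.20 to 9.51. The remaining fibrillar gene, Col27a1, read 7.86 ± 0.16 and 7.84 ± 0.012 and was not called.

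Basement membrane collagens were not called. Col4a1 read 12.12, 12.10 and 12.19 in oral tissue and 11.92, 12.14 and 11.96 in tooth germ (-0.13, 95% interval -0.30 to 0.036). Its partner Col4a2 read 11.71, 11.57 and 11.78 against 11.59, 11.38 and 11.57 and was lower in every litter (-0.17, 95% interval -0.36 to 0.015, adjusted p = 0.342). These genes start next to each other on opposite strands of chromosome 8. Their full 300-base windows, 250 bases before the start and 50 after it, share 78 bases. Col4a5, which is next to Col4a6 on the X chromosome, read 8.57, 8.64 and 8.57 against 8.70, 8.85 and 8.68. It was higher in every litter and its groups did not overlap, yet the difference of 0.15 was not called (adjusted p = 0.357). Col4a6 was dim (0.035), as were Col4a3 and Col4a4 (-8.0e-04 and -0.022), which neighbour each other on chromosome 1 and whose chains assemble with that of Col4a5 in the mature kidney. Over all collagen genes 4 had tooth germ libraries all above the oral tissue libraries, and 6 had them all below, beside 11.9% and 11.2% of all genes.

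Of the 4 transmembrane collagen genes 1 rose. Col23a1 read 9.23, 8.91 and 8.94 in oral tissue and 9.48, 9.45 and 9.43 in tooth germ. The tooth germ libraries were nearly level and all above oral tissue (0.43, SE 0.094, adjusted p = 0.0203). This call was lost without oral tissue library 2 (adjusted p = 0.0786) or 3 (0.0869), without tooth germ library 1 (0.0783) or 2 (0.0589), and without litter 2 (0.152) or 3 (0.141), at differences of 0.37 to 0.43. Col17a1, the hemidesmosome collagen that anchors basal epithelial cells, read 10.89, 10.76 and 10.37 against 10.63, 10.84 and 10.75, with overlapping groups and no call (0.067). Col7a1, the anchoring fibril collagen made by epithelium, read 9.45, 9.48 and 9.07 against 9.25, 9.71 and 9.57 (0.17, adjusted p = 0.573). Beside these epithelial collagens, 5 of 9 surface epithelium genes rose and Krt15 fell, led by Krt17 and Trp63 (2.05 and 1.01), with mean signals of 9.81 to 9.96 in oral tissue and 10.35 to 10.42 in tooth germ. Of 6 dental epithelium genes 5 rose (median 0.84), and of 9 dental mesenchyme genes 5 rose (median 0.51). With the block 7 of these 9 rose, the additions being Barx1 (0.35, adjusted p = 0.0139) and Bmp4 (0.31, adjusted p = 0.0434). The neuronal transmembrane collagen gene Col25a1 and Col13a1, of the muscle synapse, were dim and differed by -0.0024 and -0.088.

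The remaining chains did not pass the test. Col18a1, whose chain gives rise to endostatin, read 11.95, 11.85 and 11.92 against 11.78, 11.81 and 11.99 (-0.048), and Col15a1, its relative in vessel and muscle basement membranes, differed by 0.019. Col26a1 read 13.14, 12.91 and 12.91 against 12.86, 12.93 and 12.56 (-0.21, adjusted p = 0.327), and Col28a1 was dim (-0.034).

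Further probes of the called genes had the same sign and other sizes of difference. The 41 genes had 91 probes, and 27 genes had several. The 6 called genes with several probes had 8 further probes. All 8 had the sign of the chosen probe, 5 were called the same way and 3 were not called (limma over all probes). Col8a1 differed by 0.77 at its other probe (adjusted p = 0.0027), Col23a1 by 0.41 (0.0083) and Col14a1 by -0.42 (0.0035). Col6a1 differed by -0.80 at its probe of middle brightness (adjusted p = 0.0016) and by -0.12 at a dim probe that was not called. Col6a2 differed by -0.14 at a dim probe, not called, and Col8a2 by 0.28 (adjusted p = 0.0331) and, not called, by 0.069. The litter 2 reading of Col22a1 rests on its bright probe, since its other probe read 6.85 to 6.96 in all libraries.

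**Figure D4:**
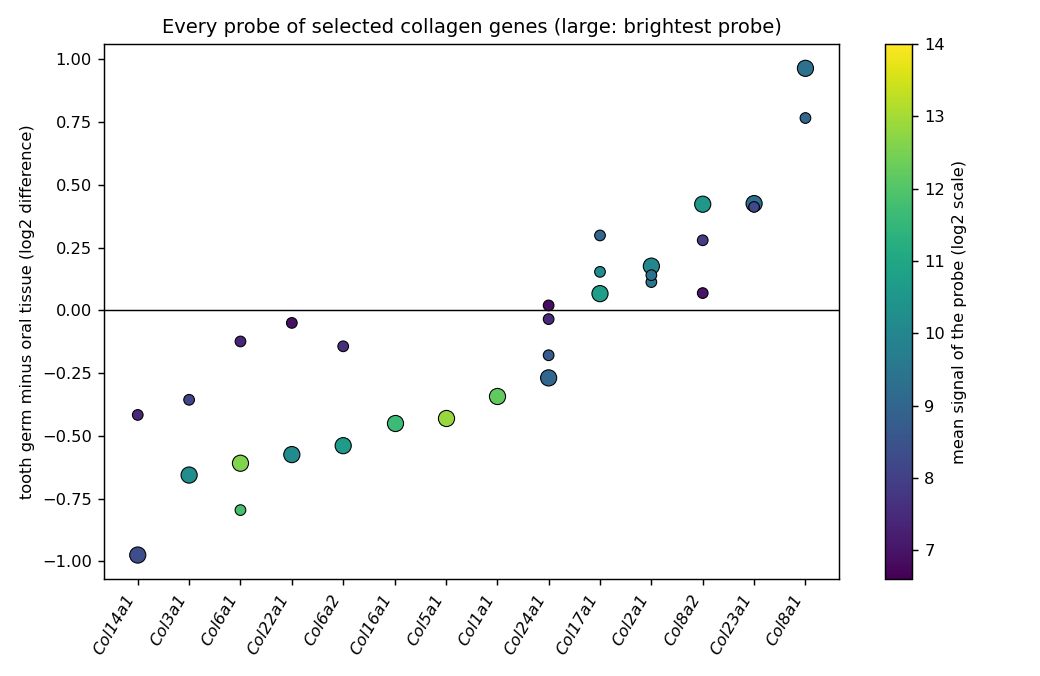
Difference between tooth germ and oral tissue (log2, y axis) at every probe of the 8 called genes and of Col1a1, Col2a1, Col3a1, Col17a1, Col22a1 and Col24a1; colour gives the probe's mean signal and large points are the brightest probe, which was used. All probes of each called gene lie on one side of 0, and those of Col24a1 lie on both.

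Among the genes that process collagen and bind it, Lox fell by 1.05 on the log2 scale and P4ha3 rose. Procollagen chains are hydroxylated and folded in the endoplasmic reticulum with dedicated enzymes and chaperones, trimmed by propeptidases outside the cell, and crosslinked by lysyl oxidases. Of 44 such genes and collagen receptors listed, 40 were on the array. Of these 40, 1 rose (P4ha3), 3 fell (Lox, Plod2, Colgalt2) and 36 were not called, with a median of -0.061. Of all genes 2.39% were called higher and 3.42% lower. In the blocked fit the counts were 1 and 5, beside 3.86% and 5.02% of all genes. The additions were Fkbp14 (limma adjusted p = 0.0495) and Bmp1 (0.0222).

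Lox, the lysyl oxidase that starts crosslinking, read 12.49, 12.47 and 11.92 in oral tissue and 11.50, 10.88 and 11.35 in tooth germ. All tooth germ libraries were lower (-1.05, SE 0.17, adjusted p = 0.0027), but under robust shrinkage of the variances it was no longer called (adjusted p = 0.0689). Its relatives Loxl1, Loxl3 and Loxl4 were not called (0.039, -0.0145 and -0.13), so 1 of 4 crosslinking genes fell (median -0.074). Plod2, the lysyl hydroxylase of the collagen telopeptides, read 9.93, 10.19 and 10.001 against 9.72, 9.51 and 9.53 (-0.45, SE 0.095, adjusted p = 0.0148). Its call was lost with the mean of all probes (-0.23, adjusted p = 0.0757), without oral tissue library 2 (0.0587), tooth germ library 2 (0.0600) or 3 (0.0523), and without litter 2 (0.151) or 3 (0.102).

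P4ha3, a prolyl hydroxylase subunit of low signal, read 7.31, 7.24 and 7.18 in oral tissue and 7.59, 7.54 and 7.62 in tooth germ (0.34, SE 0.056, adjusted p = 0.0032), and its call was lost without litter 3 (0.288, adjusted p = 0.0521). Its relatives P4ha1 and P4ha2 were not called (-0.015 and 0.057). Colgalt2, a collagen galactosyltransferase, read 7.64, 7.58 and 7.60 against 7.39, 7.37 and 7.38 (-0.23, adjusted p = 0.0270). In 9 of 18 alternatives it was not called, namely the removal of each library other than oral tissue library 2 (adjusted p = 0.0661 to 0.105), of litter 1 (0.199), 2 (0.149) or 3 (0.129), and the mean of all probes (-0.12, adjusted p = 0.0512). Serpinh1, the collagen chaperone HSP47, was bright and not called (14.16 ± 0.13 and 14.07 ± 0.20). Of 19 hydroxylation and folding genes 1 rose, 2 fell and 16 were not called (median -0.13).

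None of the 7 propeptidase genes and their enhancers (median -0.032) and none of the 10 receptors (median -0.021) was called by limma. The smallest p of the receptors was that of Ddr2, a receptor kinase for fibrillar collagen, which read 7.56, 7.61 and 7.59 against 7.72, 7.75 and 7.84 (0.18, unadjusted p = 0.0123, adjusted p = 0.128). Gp6 had an unadjusted p of 0.0452, and of the propeptidase list Bmp1, which removes the C-propeptide of fibrillar chains, had one of 0.0178 (-0.28). These are 2 and 1 genes at an unadjusted p under 0.05. The share of all genes under that unadjusted limit was not counted, so these counts have no background to be read against.

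**Figure D5:**
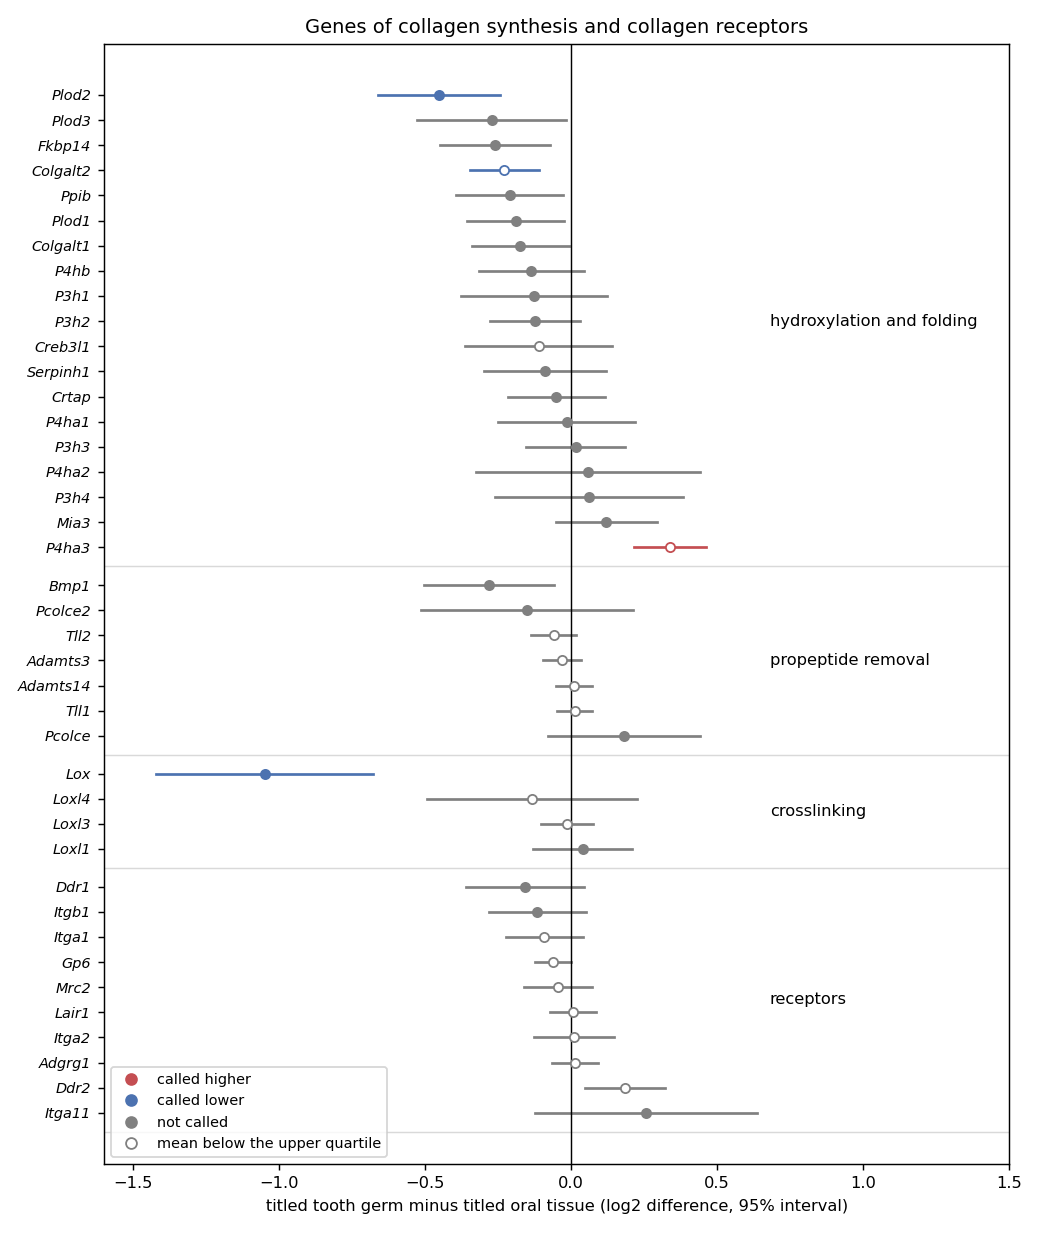
Difference between tooth germ and oral tissue (log2, x axis) with its 95% interval from limma for 40 genes of collagen synthesis and collagen receptors, by list; colour marks the call and open points have a mean signal below the upper quartile of all values. Lox at -1.05 stands farthest from 0, and P4ha3 at 0.34 is the sole gene called higher.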

How the data were processed

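The authors deposited a table holding log2-scale values of every probe on 6 arrays. The submitters' processing notes name lumi 2.8.0, with transformation and background correction not given in the sources used here. Its columns share 1 distribution (sorted values differ by at most 0.000827), so the table was taken as quantile normalized, and whether the scale is plain log2 or variance-stabilised is unknown. Of 45281 probes 34885 had 1 symbol, 18 several and 10378 none in the platform annotation. The brightest probe by mean over the 6 arrays was kept for each of 19057 genes, and limma 3.58.1 in R 4.3.3 (lmFit, eBayes with a trend, 4 residual degrees of freedom) compared the titled groups, with Benjamini-Hochberg adjustment over all genes and calls at 0.05. Intervals are 95% intervals from the moderated fit. The test was checked on simulated data with independent libraries and no litter effect, so the check does not cover libraries that share a litter.

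Libraries of a number share a litter per the labels. Deviations from group means correlated at 0.411, 0.233 and 0.265 within litters (9529 genes) and at -0.266 to -0.0722 otherwise. The design text calls the tissues paired. The fit without the litter was kept because no methods text states a blocked fit, so the main calls ignore the pairing. The blocked fit (2 residual degrees of freedom) is given where it changes a call.

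The members, classes and lists were chosen with earlier results of these data known. Named genes are all collagen genes, of each pathway list up to 4 called genes by size (up to 2 of smallest p where none was called), of each marker list up to 2, and Msx1, Shh, Myod1 and Acta1. Genes outside that rule, named after their values were seen, are Dcn, Ogn, Scx, Tnmd, Krt15, Fmod, Mkx, Lum, Emcn, Barx1, Bmp4, the uncalled osteoblast and cartilage genes, the genes that share the litter 2 pattern, the relatives of Lox and P4ha3, Serpinh1 and Fkbp14. Alternatives were a litter block or random effect, renormalization, dim genes left out, probe averaging, other variance models, array weights, a stricter threshold and leaving out libraries or litters.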

Additional observations from a re-analysis of the deposited data

How the results depend on the processing

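The limits are 3 arrays per group, a deposited scale of unknown form that may compress dim genes, and labels that contradict each other on the groups. Of the 8 called collagen genes, Col14a1, Col8a1, Col6a1 and Col6a2 kept their call in all 18 alternative fits. Between 4 and 8 of the 8 remained called in each. With litter as a block 736 genes of all kinds were called higher, and at an adjusted p under 0.01 the counts were 218 higher and 383 lower. At that threshold 1 collagen gene was called higher. Leaving out libraries or litters gave 195 to 368 genes higher, 354 to 663 lower, 1 to 2 collagen genes higher and 3 to 7 lower. It gave 0 to 1 pathway genes higher and 1 to 2 lower, beside 5 lower with the replicate block and 1 with the mean of all probes. Among collagen and pathway genes the block changed the calls of Col3a1, Col1a2, Fkbp14 and Bmp1 and no other call.

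Differences that changed sign were all of uncalled genes. With array weights Col11a2 differed by -9e-04, Col15a1 by -0.0012 and Col5a2 by 0.0124. Leaving out libraries or litters moved Col1a1 between -0.57 and 0.076, Col22a1 between -1.05 and 0.36, Col24a1 between -0.67 and 0.25, Col27a1 between -0.081 and 0.069, Col5a2 between -0.185 and 0.029, Col11a1 between -0.034 and 0.18, Col11a2 between -0.022 and 0.040, Col15a1 between -0.060 and 0.12, Col17a1 between -0.092 and 0.23 and Col18a1 between -0.11 and 0.018. The cause of these changes was not tested. Repeating the quantile normalization and centring the arrays changed no count.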

Other observations

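After the values were seen, genes were counted for which oral tissue library 2 was the highest and tooth germ library 2 the lowest of the 6 libraries. There were 534 such genes of 19057 (2.8%), with 5 of the 41 collagen genes, Col1a1, Col1a2, Col13a1, Col22a1 and Col24a1. With a log2 difference in litter 2 of -1 or below, a limit also set after the values were seen, 9 genes remained (0.0472%), and 3 of them were collagen genes, Col1a1, Col22a1 and Col24a1. The other genes were Ibsp, Dapk2, Fabp3, Hrc, Srpx2 and Tent5a. In 4 of the 9, Col1a1, Col22a1, Ibsp and Srpx2, the difference was above 0 in both other litters. Dapk2, Fabp3, Hrc and Tent5a were lower in all 3 litters with groups that did not overlap, and with the block Hrc and Dapk2 were called (limma adjusted p = 0.0347 and 0.0326). Srpx2, a secreted matrix-associated protein, read 8.64, 9.19 and 8.67 in oral tissue and 8.67, 7.98 and 8.87 in tooth germ. Hrc, a calcium-binding protein of muscle, read 9.16, 9.62 and 9.11 against 8.82, 7.94 and 8.82.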
